A study of Mus musculus with 6 samples.

Results

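The genes described here encode the proteins that copy DNA at the replication fork and the factors that restore chromatin and DNA methylation behind it. They were taken by name from a fixed list of 36 symbols, which covers the origin recognition complex, GINS, the replicative polymerases, the sliding clamp and its loader, the single-strand binding protein RPA, DNA ligase and flap nuclease, methylation and chromatin maintenance factors, and regulators of origin firing. All 36 were found among the 54532 gene entries of the deposited table, each with 1 entry. Of these, 35 reached the level required for testing, a mean of 1 FPKM (fragments scaled by gene length and library depth) over the 6 libraries, out of 11708 genes tested. The exception was Fen1.

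DNA replication starts where the origin recognition complex marks the DNA and loads the MCM helicase, which GINS and its partners then switch on. Polymerase alpha with its primase lays short primers, and polymerases epsilon and delta extend them on the leading and lagging strands while held to the DNA by the PCNA ring, which the RFC complex loads. Most of these genes are transcribed at the entry to S phase under E2F factors, so their mRNA level is widely read as a sign of proliferation. RAW264.7 is a single mouse macrophage line of tumour origin that divides continuously in culture.

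The C/D libraries came from RAW264.7 cells kept for 3 d with a composite hydrogel of GelMA (methacryloyl gelatin), the conducting polymer PEDOT:PSS and PLLA/PDA, labelled dynamic because of ultrasound at 48 kHz for 5 min. The Gel/S libraries came from RAW264.7 cells kept static with GelMA alone, and each group held 3 libraries. Because the material and the ultrasound change between the same groups, their parts in any difference cannot be told apart, and the labels do not say that replicates are separate cultures, so p-values measure only the spread between these samples. Columns marked US in the table were read as C/D because the labels give ultrasound to that group only, and every direction below rests on this reading.

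Library totals lay between 12818831 and 16525699 counts. Mitochondrial genes took 9.17%, 10.4% and 9.99% of counts in C/D 1 to 3, against 5.59%, 9.02% and 7.41% in Gel/S 1 to 3. All 10 macrophage markers averaged above 1 FPKM, with summed levels of 13046 to 13153 FPKM in C/D and 15343 to 15429 FPKM in Gel/S. Lyz2, a lysozyme gene, makes up most of this sum (7922 to 8085 FPKM in C/D and 9627 to 10754 FPKM in Gel/S). The list goes both ways, since Csf1r and Cd14 were lower in every C/D library, Tyrobp was higher (1856 to 2131 FPKM in C/D and 1289 to 1803 FPKM in Gel/S), and Cd68 and Fcgr1 overlapped. None of the 7 fibroblast, 4 epithelial or 4 endothelial markers averaged 1 FPKM, and Col1a2, Col3a1, Epcam and Kdr were at 0 in every library. Of 8 osteoclast markers 4 passed 1 FPKM (summed 46.3 to 51.6 FPKM in C/D and 55.9 to 57.6 FPKM in Gel/S), with Calcr at 0. Within that list, Dcstamp was lower (14.2 to 16.0 FPKM in C/D and 29.4 to 30.7 FPKM in Gel/S), while Acp5 was higher (18.9 to 24.4 FPKM in C/D and 13.6 to 15.8 FPKM in Gel/S), as were the low Ctsk and Oscar. Of 6 T cell markers only Lck averaged 1 FPKM, with overlapping groups, and of 5 B cell markers none did, at summed levels of 1.07 to 1.56 FPKM in C/D and 0.536 to 0.857 FPKM in Gel/S. The part of the mitochondrial share and of these markers in the results was not tested. Gel/S 1 stood apart from the other Gel/S libraries, as shown for the member genes below.

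About as many replication fork genes were called lower in C/D than in Gel/S as were not called, and several complexes held both kinds. By the edgeR quasi-likelihood test with Benjamini-Hochberg adjustment over all tested genes, 18 of the 35 tested members fell, 1 rose (Gins3) and 16 did not pass an adjusted p of 0.05. Over all 11708 genes, 13.9% fell and 13.1% rose. The members' median log2 fold change was −0.36, against 0.01 over all tested genes. The steepest falls were in Uhrf1, Chaf1a, Pola1, Prim2 and Rpa1, between 0.80 and 1.11 on the log2 scale. The C/D libraries, where these genes were lower, also had the higher mitochondrial shares given above, and Gel/S 1 the lowest. In bulk RNA, fewer cells in S phase and less of these mRNAs per cell cannot be told apart.

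Group separation gave a similar picture without a model. The FPKM values of all C/D libraries lay below those of all Gel/S libraries for 28 of the 35 members, where 27.1% of all tested genes did so. They lay above for 2 members, Orc4 and Gins3, where 19.1% of all tested genes did so, and overlapped for the other 5. All 19 called members were among those whose groups did not overlap. In the authors' deposited table, 22 of the 36 members have an adjusted p under 0.05 and a lower level in C/D, and 1 has a higher level. The share of all genes called by the authors' test was not counted here, so these counts have no background beside them. The 23 members called by the authors include the 19 called here, and the other 4 are Orc6, Pole2, Pcna and Fen1.

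**Figure D1:**
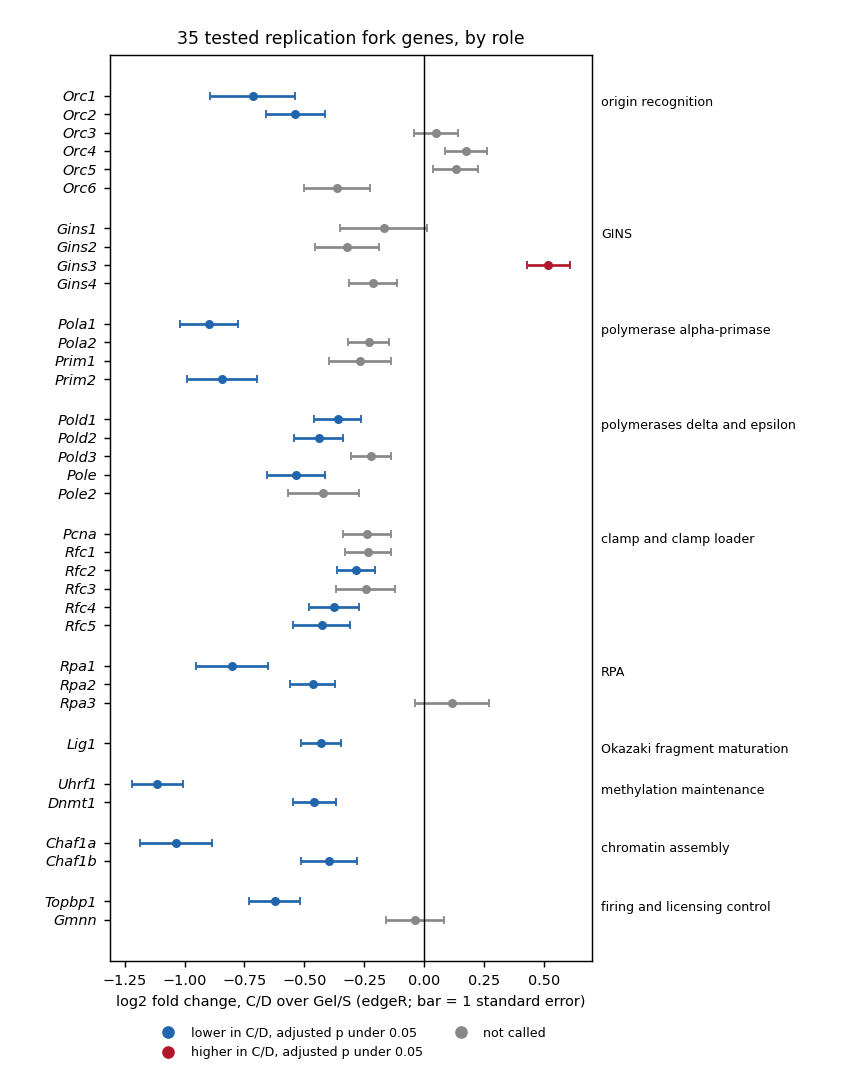
Log2 fold change of C/D over Gel/S (horizontal axis) for the 35 tested members, grouped by role, with bars of 1 standard error from edgeR. Most points lie left of 0: blue points passed an adjusted p of 0.05 as lower in C/D, the red point (Gins3, 0.52) as higher, and grey points did not pass, with Orc3, Orc4, Orc5 and Rpa3 grey and right of 0.

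**Figure D2:**
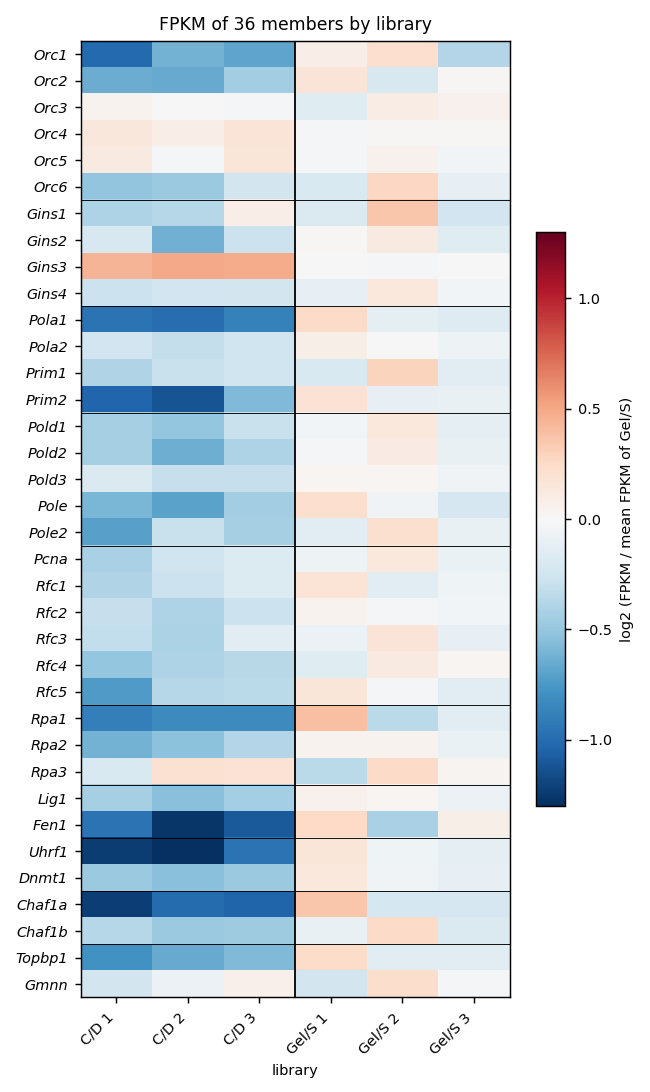
FPKM of each of the 36 members in each library, as log2 of the ratio to the mean of the 3 Gel/S libraries, with C/D in the left columns and Gel/S in the right. Rows for Uhrf1, Chaf1a, Pola1 and Prim2 are blue in all C/D libraries, the Gins3 row is red there, and the Gel/S 1 column differs from its neighbours most in Rpa1 and Chaf1a.

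Since 18 members fell, promoter windows of all members were read for the E2F-type letters found at many S phase genes. RefSeq windows of GRCm38.p6, from 250 bases before to 50 bases after a start, were at hand for 29 of the 36 genes. At least 1 of the words TTTCCCGC, TTTGGCGC, TTTGCCGC and TTTCGCGC, on either strand, stood in a window of 12 of these 29 genes (41.4%), against 4.91% of 8202 other tested genes and 2.60% of all 27025 genes in the promoter table. TTTCGCGC was found in 6 members and TTTGCCGC in none. The shorter word CCAAT, bound by NF-Y, stood in 17 of 29 members (58.6%), 43.5% of the other tested genes and 41.1% of all genes. Of the 12 members with E2F-type letters, 7 fell, 1 rose and 4 did not pass, with a median log2 fold change of −0.43. Among the 16 tested members whose windows lack these letters, 8 fell and 8 did not pass, with a median of −0.37. A match describes letters only and says nothing about binding in these cells.

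The windows of 3 members that fell and of the member that rose are shown to set their letters side by side, in lower case with E2F-type and CCAAT words in capitals. They are Uhrf1 (chr17:56304063-56304362, plus strand), Orc1 (chr4:108579204-108579503, plus strand), Pola1 (chrX:93632106-93632405, minus strand) and Gins3 (chr8:95633309-95633608, plus strand), each written 5′ to 3′ along the gene.
Uhrf1: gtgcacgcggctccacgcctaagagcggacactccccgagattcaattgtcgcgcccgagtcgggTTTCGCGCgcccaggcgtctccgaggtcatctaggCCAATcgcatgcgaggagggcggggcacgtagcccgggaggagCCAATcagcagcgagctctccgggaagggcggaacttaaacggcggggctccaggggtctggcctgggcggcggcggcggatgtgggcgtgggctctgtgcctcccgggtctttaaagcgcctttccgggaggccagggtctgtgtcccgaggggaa
Orc1: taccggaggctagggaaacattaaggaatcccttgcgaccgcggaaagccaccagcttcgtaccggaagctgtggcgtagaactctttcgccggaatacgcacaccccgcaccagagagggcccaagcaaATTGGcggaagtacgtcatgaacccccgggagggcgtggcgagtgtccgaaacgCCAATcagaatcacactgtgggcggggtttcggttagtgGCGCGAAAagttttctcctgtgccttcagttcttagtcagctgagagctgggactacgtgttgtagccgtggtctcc
Pola1: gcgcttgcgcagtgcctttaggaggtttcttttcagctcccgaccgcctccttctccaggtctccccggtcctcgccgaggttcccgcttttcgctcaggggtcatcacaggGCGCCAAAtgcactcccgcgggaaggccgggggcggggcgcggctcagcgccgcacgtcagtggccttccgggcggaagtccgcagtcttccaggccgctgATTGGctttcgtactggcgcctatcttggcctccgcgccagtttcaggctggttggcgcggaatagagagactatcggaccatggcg
Gins3: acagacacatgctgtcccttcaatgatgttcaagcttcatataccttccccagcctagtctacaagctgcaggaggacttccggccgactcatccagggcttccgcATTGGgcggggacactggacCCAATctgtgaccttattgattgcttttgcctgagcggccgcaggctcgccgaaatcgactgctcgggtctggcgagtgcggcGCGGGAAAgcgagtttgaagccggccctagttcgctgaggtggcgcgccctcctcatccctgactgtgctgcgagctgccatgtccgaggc
Uhrf1 has 2 windows, each at its own start, and the one not shown (chr17:56303087-56303386) holds no E2F-type word. In the windows shown, the word starts 185 bases before the start in Uhrf1, 27 in Orc1, 138 in Pola1 and 41 in Gins3. These letters therefore stand before genes that fell and before the gene that rose. Orc3, whose level did not pass the test, also has such a word, 41 bases before its start.

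In the origin recognition complex, Orc1 and Orc2 fell while Orc3 to Orc6 did not pass. Orc1, the subunit whose level cycles in dividing cells and which helps to load the MCM helicase, had 1.83, 2.41 and 2.29 FPKM in C/D 1 to 3, against 3.94, 4.31 and 2.85 FPKM in Gel/S 1 to 3. The groups do not overlap, and Gel/S 3 comes nearest to C/D. Its log2 fold change was −0.72 (SE 0.178, edgeR adjusted p = 0.0129). Without C/D 1 it missed the threshold (adjusted p = 0.0594). Orc2, a core subunit (chromosome 1, 3857 bases), had 4.03, 3.998 and 4.58 FPKM in C/D, against 7.09, 5.45 and 6.34 FPKM in Gel/S (log2 fold change −0.54, SE 0.124, edgeR adjusted p = 0.00882). Of its exon bases 29.8% are shared with Nif3l1 on the opposite strand, whose own log2 fold change was −0.13 (adjusted p = 0.369).

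The other core subunits gave near-equal levels. Orc3 had 12.1, 11.7 and 11.7 FPKM in C/D, against 10.5, 12.6 and 12.2 FPKM in Gel/S, with overlapping groups (log2 fold change 0.05, edgeR adjusted p = 0.719). Orc4 averaged 5.35 ± 0.161 FPKM in C/D and 4.88 ± 0.0746 FPKM in Gel/S (SD, n = 3 each), above in every C/D library but with a log2 fold change of 0.18 that did not pass (adjusted p = 0.151). Orc5 averaged 5.57 ± 0.341 FPKM in C/D and 5.23 ± 0.179 FPKM in Gel/S, with overlapping groups (SD, n = 3 each; log2 fold change 0.13, adjusted p = 0.320). On the TPM scale (FPKM rescaled to the same total in each library) Orc3 was at −0.08, Orc4 at 0.04 and Orc5 near 0, so the direction of Orc3 depends on the scale. Orc6, which binds the core loosely in animals, had 9.37, 9.57 and 11.3 FPKM in C/D, against 11.6, 16.0 and 12.4 FPKM in Gel/S. C/D 3 comes close to Gel/S 1, and its change of −0.36 on the log2 scale did not pass (SE 0.137, edgeR adjusted p = 0.0678) except without Gel/S 1, without the filter on low levels, on the TPM scale or with length and GC offsets.

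GINS is a ring of 4 subunits that joins Cdc45 and MCM in the active helicase, and its genes did not move as a unit. Gins3 (chromosome 8, 95633453 to 95645060, GRCm38) was the only member called higher. It had 13.5, 14.0 and 13.9 FPKM in C/D, against 9.98, 9.82 and 9.95 FPKM in Gel/S. Both groups were tight and far apart, at 0.52 on the log2 scale (SE 0.0896, edgeR adjusted p = 0.00220), and the call stood in each of the 16 alternative fits, with 0.51 to 0.53 on leaving out 1 library at a time. Gins4 averaged 22.6 ± 0.335 FPKM in C/D and 27.0 ± 2.38 FPKM in Gel/S (SD, n = 3 each), a log2 fold change of −0.21 (adjusted p = 0.131) that was called as −0.34 on TPM (limma adjusted p = 0.025) and as −0.35 with length and GC offsets (edgeR adjusted p = 0.00896). Gins1 had 10.7, 10.95 and 15.04 FPKM in C/D, against 12.4, 18.2 and 11.9 FPKM in Gel/S, so the groups overlap through C/D 3 (log2 fold change −0.17, edgeR adjusted p = 0.514). Gins2 averaged 4.24 ± 0.627 FPKM in C/D and 5.44 ± 0.519 FPKM in Gel/S (−0.32, adjusted p = 0.0942, or 0.037 with no filter), and 67.3% of its exon bases are shared with Gse1 on the opposite strand.

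Subunits of a complex can also be set against each other as the ratio of their FPKM in each library, given here as a description for 8 pairs picked after their values were seen, each a called against an uncalled member. The ratio of Gins3 to Gins4 was 0.608, 0.615 and 0.606 in C/D, against 0.398, 0.331 and 0.379 in Gel/S. The ratio of Orc2 to Orc4 was 0.747, 0.773 and 0.836 in C/D, against 1.48, 1.11 and 1.29 in Gel/S. These ratios do not overlap between the groups, and nor do those of Gins3 to Gins1, Pola1 to Pola2, Rpa1 to Rpa3, Rpa2 to Rpa3 and Orc1 to Orc4. The ratio of Prim2 to Prim1 overlapped, at 0.277 ± 0.0498 in C/D and 0.428 ± 0.114 in Gel/S (SD, n = 3 each). Picking a called against an uncalled member favours separate ratios, so the separation adds no support to the calls. Exact permutation of the log2 ratios cannot give a p under 0.1 with 3 libraries against 3, so no pair could pass 0.05. Its lowest Benjamini-Hochberg adjusted p of 0.114 therefore decides nothing.

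**Figure D3:**
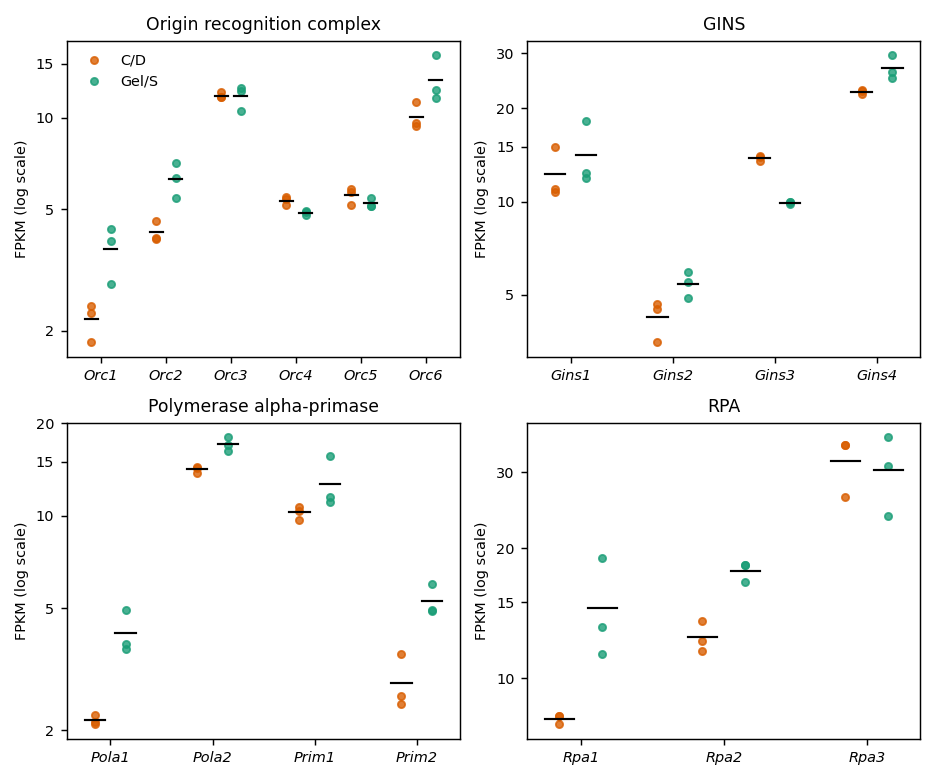
FPKM (vertical axis, log scale) of each subunit in the origin recognition complex, GINS, polymerase alpha-primase and RPA, with 1 point per library, C/D left of Gel/S, and a black bar at each mean. Gins3 lies higher in C/D while its partners lie lower or overlap, and Pola1, Prim2, Rpa1, Orc1 and Orc2 lie lower in C/D beside partners whose groups are closer.

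Polymerase alpha-primase makes the RNA-DNA primer of every Okazaki fragment. The gene of its catalytic subunit, Pola1 (chromosome X, 8813 bases), had 2.13, 2.09 and 2.25 FPKM in C/D, against 4.91, 3.81 and 3.69 FPKM in Gel/S. The C/D values are tight and lie far below all Gel/S values, of which Gel/S 1 is the highest (log2 fold change −0.90, SE 0.121, edgeR adjusted p = 0.000593). Prim2, the large primase subunit, had 2.59, 2.43 and 3.54 FPKM in C/D, against 5.997, 4.90 and 4.94 FPKM in Gel/S (log2 fold change −0.84, SE 0.146, edgeR adjusted p = 0.00219). Their partners changed less and did not pass. Pola2, the accessory subunit that tethers the catalytic one, had 14.4, 13.8 and 14.3 FPKM in C/D, against 18.02, 17.01 and 16.3 FPKM in Gel/S (log2 fold change −0.23, edgeR adjusted p = 0.0634), a fall that limma called on FPKM and TPM. Prim1, the catalytic primase subunit, had 9.72, 10.4 and 10.7 FPKM in C/D, against 11.1, 15.6 and 11.5 FPKM in Gel/S. The Gel/S mean of Prim1 rests on Gel/S 2, and without that library its log2 fold change was −0.09 in place of −0.27. Prim1 was called without Gel/S 1 (−0.37, edgeR adjusted p = 0.0235) and with no filter on low levels.

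Polymerases delta and epsilon do the bulk of synthesis on the lagging and leading strands. Pole, the catalytic subunit of epsilon and with 11160 bases among the longest members, had 2.36, 2.20 and 2.60 FPKM in C/D, against 4.16, 3.46 and 3.07 FPKM in Gel/S (log2 fold change −0.53, SE 0.120, edgeR adjusted p = 0.00787). Pold1, the catalytic subunit of delta, had 12.1, 11.6 and 13.4 FPKM in C/D, against 16.0, 18.1 and 15.1 FPKM in Gel/S (log2 fold change −0.36, edgeR adjusted p = 0.0180). Pold2, a delta subunit that holds the complex together, had 18.05, 15.6 and 18.4 FPKM in C/D, against 24.0, 26.1 and 22.7 FPKM in Gel/S (log2 fold change −0.44, edgeR adjusted p = 0.00893). The groups of all 3 genes are separate. The call of Pold1 was lost when either C/D 1 or C/D 2 was left out (edgeR adjusted p up to 0.0929) and that of Pold2 when C/D 2 was (0.0553). Pold3, the delta subunit with a PCNA-binding tail, had 9.94, 9.24 and 9.20 FPKM in C/D, against 11.6, 11.5 and 10.98 FPKM in Gel/S, a small shift of −0.22 that did not pass by edgeR (adjusted p = 0.0727) but did by limma on FPKM and TPM. Pole2, the second subunit of epsilon, averaged 4.10 ± 0.582 FPKM in C/D and 5.66 ± 0.766 FPKM in Gel/S (SD, n = 3 each; −0.42, adjusted p = 0.0537), just outside the threshold, and was called in 6 alternative fits.

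PCNA, the sliding clamp, was the most abundant member mRNA. Pcna had 111, 124 and 132 FPKM in C/D, against 142, 164 and 140.2 FPKM in Gel/S. Every C/D library was below every Gel/S library, yet C/D 3 came close to Gel/S 3, and the change of −0.24 on the log2 scale did not pass (SE 0.101, edgeR adjusted p = 0.0988). The call was made without Gel/S 1, without the filter on low levels, on the TPM scale and with length and GC offsets. A stretch covering 51.5% of its transcript is at least 90% identical to the pseudogene Pcna-ps2, which held 11 to 44 counts per library.

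The clamp loader RFC opens the PCNA ring around primed DNA. Of its 5 genes, Rfc2, Rfc4 and Rfc5 fell and Rfc1 and Rfc3 did not pass, with all 5 log2 fold changes between −0.23 and −0.43. Rfc5 had 5.39, 6.95 and 7.02 FPKM in C/D, against 9.97, 8.80 and 8.11 FPKM in Gel/S (log2 fold change −0.43, SE 0.119, edgeR adjusted p = 0.0210). It missed the threshold without C/D 1 (0.0805). Rfc4 had 17.2, 18.5 and 19.0 FPKM in C/D, against 21.8, 26.4 and 24.7 FPKM in Gel/S (log2 fold change −0.38, edgeR adjusted p = 0.0226). Rfc2 had 9.64, 8.98 and 9.78 FPKM in C/D, against 12.2, 11.8 and 11.6 FPKM in Gel/S (log2 fold change −0.28, edgeR adjusted p = 0.0234). Rfc2 and Rfc4 each missed the threshold without Gel/S 3 or any 1 C/D library (highest adjusted p = 0.116 and 0.0828). Rfc1, the large subunit, averaged 10.8 ± 0.798 FPKM in C/D and 13.1 ± 1.53 FPKM in Gel/S (SD, n = 3 each; −0.23, adjusted p = 0.0917), and was called without Gel/S 2 or with no filter. Rfc3 had 5.43, 5.08 and 6.15 FPKM in C/D, against 6.41, 7.62 and 6.27 FPKM in Gel/S, with C/D 3 just below Gel/S 3 (log2 fold change −0.24, edgeR adjusted p = 0.154).

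RPA coats single-stranded DNA at the fork as a trimer, and its 3 genes parted. Rpa1, the large DNA-binding subunit, had 7.83, 8.18 and 8.20 FPKM in C/D, against 19.0, 11.4 and 13.2 FPKM in Gel/S. Gel/S 1 is far above the other Gel/S libraries, and the fold change on the log2 scale, −0.80 (SE 0.149, edgeR adjusted p = 0.00324), was −0.57 without it and still called. Rpa2, the subunit phosphorylated under replication stress, had 11.6, 12.2 and 13.6 FPKM in C/D, against 18.3, 18.3 and 16.7 FPKM in Gel/S (log2 fold change −0.47, SE 0.0933, edgeR adjusted p = 0.00457). Rpa3, the smallest subunit and with 1136 bases the shortest member, had 26.3, 34.8 and 34.6 FPKM in C/D, against 23.8, 36.1 and 31.0 FPKM in Gel/S. Its groups overlap throughout (log2 fold change 0.12, SE 0.155, edgeR adjusted p = 0.599, or −0.01 on TPM), and its lowest value is in Gel/S 1, the library where Rpa1 is highest. All tested genes shorter than 2000 bases had a median log2 fold change of 0.21. With per-library offsets for length and GC content, Rpa1 and Rpa2 were called lower and Rpa3 was not called. The part of gene length in the RPA split was not tested.

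Lig1, which seals the nicks between Okazaki fragments, had 11.96, 11.1 and 11.9 FPKM in C/D, against 16.8, 16.4 and 15.3 FPKM in Gel/S. The groups are tight and separate (log2 fold change −0.43, SE 0.0836, edgeR adjusted p = 0.00398). The call held on leaving out each library in turn. Fen1, the nuclease that trims the flap before ligation, was listed at only 0.635, 0.513 and 0.576 FPKM in C/D, against 1.47, 0.921 and 1.30 FPKM in Gel/S, from 20, 20 and 21 counts in C/D and 57, 36 and 49 counts in Gel/S. It was not tested at the chosen level filter. With no filter, its log2 fold change was −1.11 (SE 0.299, edgeR adjusted p = 0.00259). Of its exon bases 84.2% are shared with the antisense gene Gm10143 or with Tmem258 on the opposite strand. Gm10143 itself held 9 to 28 counts per library. The authors' handling of reads in such overlaps is unknown here, so the level of Fen1 against other members is uncertain.

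Both factors that copy DNA methylation fell, and Uhrf1 had the steepest fall among the tested members. Uhrf1, which recognises hemimethylated DNA behind the fork and brings in the methyltransferase (chromosome 17, 56303321 to 56323486), had 11.8, 11.3 and 14.3 FPKM in C/D, against 31.0, 26.8 and 25.5 FPKM in Gel/S. The groups are far apart, with C/D 3 the highest of its group. The log2 change was −1.11 (SE 0.107, edgeR adjusted p = 0.0001001), between −1.22 and −1.04 on leaving out single libraries. The pseudogene Gm5648, at least 90% identical over 44.3% of the Uhrf1 transcript, held only 1 to 9 counts per library. Dnmt1, the maintenance methyltransferase, had 33.1, 31.6 and 32.9 FPKM in C/D, against 50.8, 44.7 and 42.7 FPKM in Gel/S, a clear but smaller separation (log2 fold change −0.46, SE 0.0902, edgeR adjusted p = 0.00416).

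CAF-1 places new histones H3 and H4 behind the fork, and both of its listed genes fell. Chaf1a, the large subunit that binds PCNA, had 1.93, 2.25 and 2.19 FPKM in C/D, against 5.77, 3.85 and 3.87 FPKM in Gel/S, highest in Gel/S 1. The difference was −1.04 on the log2 scale (SE 0.1505, edgeR adjusted p = 0.000914), or −0.83 without Gel/S 1. Of its exon bases 52.5% are shared with Ubxn6 on the opposite strand, which held 48 to 106 counts per library. Chaf1b, the middle subunit, had 9.08, 8.38 and 8.52 FPKM in C/D, against 11.003, 13.9 and 10.3 FPKM in Gel/S (log2 fold change −0.40, SE 0.118, edgeR adjusted p = 0.0273). That call was lost without Gel/S 2 or any 1 C/D library (highest adjusted p = 0.103), and Gel/S 2 is the high value.

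Of the 2 regulators, Topbp1 fell and Gmnn did not pass. Topbp1, a scaffold needed to fire origins and to activate the ATR checkpoint kinase, had 6.27, 6.87 and 7.26 FPKM in C/D, against 12.8, 9.79 and 9.86 FPKM in Gel/S (log2 fold change −0.62, SE 0.107, edgeR adjusted p = 0.00215). Geminin, encoded by Gmnn, blocks a second round of licensing by binding Cdt1 and accumulates from S phase until mitosis. Gmnn had 40.7, 45.4 and 50.1 FPKM in C/D, against 40.7, 56.1 and 47.0 FPKM in Gel/S, and the groups overlap almost fully (log2 fold change −0.04, SE 0.123, edgeR adjusted p = 0.840). The pseudogene Gm6510, which matches 43.5% of its transcript at 90% identity or more, had no count in any library.

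The size of the falls moved with gene length, and so did the level in Gel/S 1 against the other Gel/S libraries. Across the 35 members the Spearman correlation of log2 fold change with listed gene length was −0.36, and across all 11708 tested genes it was −0.21 (both are across genes, which are not independent replicates). Among genes shorter than 2000 bases the median log2 fold change was −0.19 for 6 members and 0.21 for all 2893 tested genes. In the class from 2000 to 4000 bases it was −0.32 for 10 members and −0.02 for all genes, and from 4000 to 8000 bases −0.36 for 15 members and −0.05 for all genes. At 8000 bases or more it was −0.76 for the 4 members Pola1, Pole, Chaf1a and Topbp1, which all fell, and −0.03 for all genes. In that class 14.6% of all tested genes fell. The members' median lay below that of all tested genes in each of the 4 classes. Gins3, Orc3, Orc4 and Orc5 lay above the median of their class. Within Gel/S, the ratio of Gel/S 1 to the mean of Gel/S 2 and Gel/S 3 rose with length, with a Spearman correlation of 0.65 over the members and 0.43 over all tested genes. Without Gel/S 1, 22 members and 1571 of all genes fell, 1 member rose and the members' median was −0.39. With per-library offsets for length and GC content, an alternative added after the data were seen, 22 members and 1990 of all genes fell, 1 member rose and the members' median was −0.35. What sets the length dependence was not tested.

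**Figure D4:**
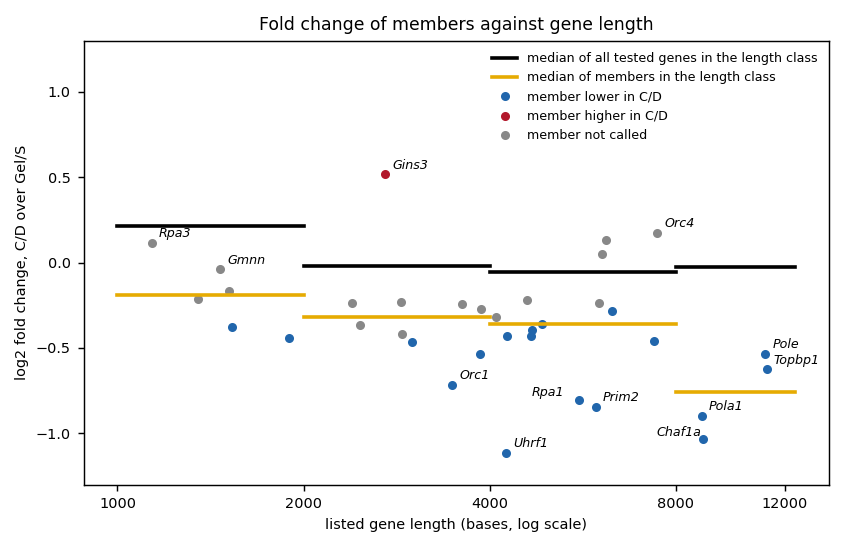
Log2 fold change of C/D over Gel/S (vertical axis) against listed gene length in bases (log scale) for the 35 tested members, coloured by call. Black lines give the median of all tested genes and yellow lines that of the members in each of 4 length classes, and the yellow line lies below the black one in every class (−0.76 against −0.03 at 8000 bases or more).

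Other genes of the replication pathway are given by functional list. In the list of helicase loading and activation, 11 of 14 tested genes fell and none rose (median −0.69 on the log2 scale). Cdc6, a helicase loader (−0.94, edgeR adjusted p = 0.000443), and the MCM subunits Mcm2 to Mcm7 (−0.59 to −0.93) were among them, and Mcm2 and Mcm5 had the smallest adjusted p (0.000174 and 0.000240). Of 13 fork protection and checkpoint genes 6 fell (median −0.30), led by Wdhd1, which links polymerase alpha to the helicase (−0.64), and Tipin (−0.56). Of 8 genes for alternative clamp loaders and clamp partners 3 fell (median −0.35), Chtf8 (−0.60), Atad5 (−0.51), which unloads PCNA, and Chtf18 (−0.36). Of 13 tested genes for fork chromatin and topoisomerases 8 fell (median −0.37), with the smallest p for Ssrp1 (−0.61), a FACT subunit, and Asf1b (−0.51), a histone chaperone. Rbbp4, the third CAF-1 subunit, fell as well, by 0.44 on the log2 scale.

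Replicase subunits outside the listed members and the repair polymerases gave few calls. Among 10 such subunits and fork nucleases 0 fell at an adjusted p of 0.05 by the main edgeR fit or DESeq2 (Dna2 at an unadjusted p of 0.0228), and Rnaseh2c, an RNase H2 subunit, rose (0.51, adjusted p = 0.00683). By edgeR with no filter or with length and GC offsets, 1 of this list fell. Pold4, the small delta subunit, averaged 52.9 ± 8.94 FPKM in C/D and 40.2 ± 8.02 FPKM in Gel/S (SD, n = 3 each; 0.44, adjusted p = 0.0589), while Pole3 and Pole4 had log2 fold changes of −0.19 and −0.12 that did not pass. Of 17 tested repair and translesion polymerases and ligases, Parp1 fell (−0.31), Lig4 rose (0.54), and 15 did not pass (median 0.09). The calls of Parp1 and Lig4 were lost with single libraries left out (highest adjusted p = 0.102 and 0.1002). Poln and Dnmt3b were below the level for testing. Whether these lists differ from the members beyond the spread was not tested.

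Cell cycle regulators are given beside the members because replication genes are tied to S phase. Of 14 G1/S regulators 9 fell, including Ccne2, the cyclin of S phase entry (−1.305, edgeR adjusted p = 0.000349), Rbl1 (−0.66) and E2f1 (−0.59), and Cdkn1b, an inhibitor of cyclin-dependent kinases, rose (0.45). Of 16 G2/M genes 8 fell (median −0.27), with the smallest p for Kif20a (−0.48) and Aurka (−0.34). Cdk1, Ccnb1 and Ccnb2 had log2 fold changes of 0.01, −0.05 and 0.10 that did not pass, and the marker of cycling cells Mki67 one of −0.27 (adjusted p = 0.0570). The G2/M count was 1 without C/D 1 and 1 without C/D 2.

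**Figure D5:**
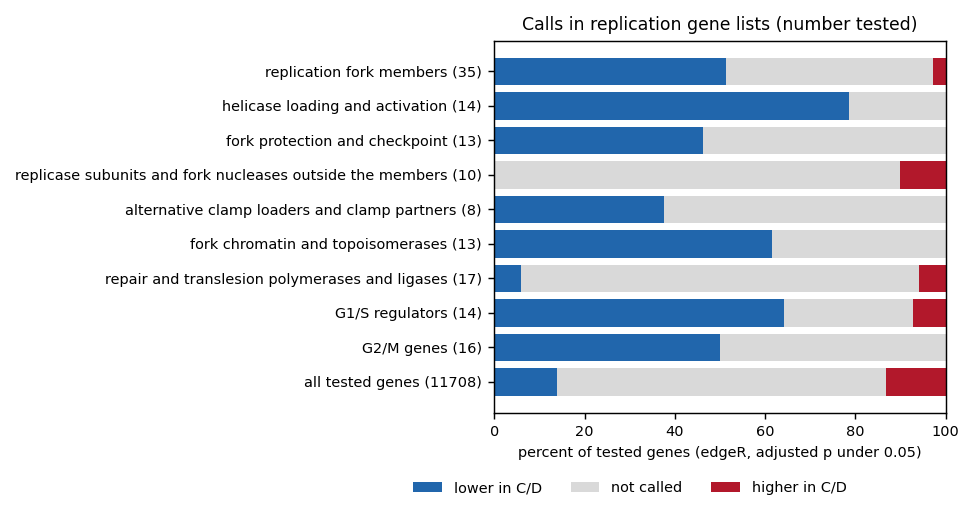
Percent of tested genes called lower (blue), not called (grey) or higher (red) in C/D for the members, 8 further gene lists and all tested genes, with the number tested in parentheses. The blue share is 51.4% for the members and 78.6% for helicase loading and activation, against 13.9% of all tested genes, and is 0 for the replicase subunits and nucleases outside the members.

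The split of calls over all genes differed with the fit. By edgeR, 1532 genes rose and 1631 fell (48.4% of calls were higher). With limma on log2(FPKM + 1), 1020 rose and 1471 fell (40.9% higher). From edgeR to limma the test and the scale of the values change together. With limma on TPM, 633 rose and 1510 fell (29.5% higher), and the median of all genes shifted to −0.12. On that scale 24 members fell and 1 rose, with a median of −0.48.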

How the data were processed

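RNA of RAW264.7 cells was sequenced in 3 C/D and 3 Gel/S libraries. The deposited table holds raw counts per gene and FPKM values made by the authors, per the file headers. FPKM is exactly proportional to count over listed gene length, with a library scale that differs slightly from the sum of counts. The table also holds the authors' signal columns (group means of scaled counts), log2 fold changes (Gel/S over C/D) and p-values with adjusted p-values, per the file headers, made by a test that no source names. The submitters' processing notes name the build GRCm38, also called mm10. No source used here names the aligner, the counter, the annotation or the strand setting. Whether reads of genes that overlap on opposite strands were separated is therefore unknown here.

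Date-like symbols (27) were restored from gene IDs and the 100 repeated symbols summed. Genes with a mean FPKM of at least 1 were tested with edgeR 4.0.16 (quasi-likelihood, TMM factors, R 4.3.3) on counts, with Benjamini-Hochberg adjustment and a threshold of 0.05. Standard errors were taken as |log2 fold change| divided by √F. Alternatives were DESeq2 1.42.0, limma 3.58.1 on log2(FPKM + 1), log2(FPKM + 0.1) and log2(TPM + 1), other scalings and filters, a replicate block and leaving out each library. Folds from the limma fits are on the log2(value + pseudocount) scale and understate changes of low genes. The test was checked on simulated data. Exon overlaps and near-identical stretches (blastn, at least 90% identity over 200 bases) are from GENCODE M21, whose coordinates equal those of the table for all members except Pola2.

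All members are named. In each role, members with the smallest and largest p, and those whose call an alternative removed, have values for each library. Of each other list, the 2 genes with the smallest p and any called in the less common direction are named, and further genes there were picked after their values were seen. Members and lists were chosen with earlier results of these data known, and no list was tested as a set. A planned search of protein sequences was not run.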

Additional observations from a re-analysis of the deposited data

How the results depend on the processing

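All 18 members called lower kept that call in each alternative that used all 6 libraries and tested them. Under a mean FPKM of at least 5 only 28 members were tested, of which 13 fell, beside 1144 of all 7298 genes tested in that fit. Counts of members called lower ranged from 12 to 22 on leaving out single libraries, with 11 of the 18 keeping the call throughout. The members' median of −0.36 moved to −0.24 at a mean FPKM of at least 5, to −0.48 on TPM, and ranged from −0.42 to −0.28 with single libraries left out. Over all genes, 1020 rose with limma on log2(FPKM + 1), 1008 on log2(FPKM + 0.1) and 633 on TPM. With single libraries left out, 887 to 1989 rose and 876 to 2089 fell. No member's called change reversed. Without any filter 25 of 36 members fell, beside 2237 of all 23858 genes tested in that fit.

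Calls in other lists moved more. At a mean FPKM of at least 5, the counts that fell were 3 for fork protection, 1 for clamp partners, 0 for repair polymerases and 5 for G1/S regulators. Below that level, and so not tested there, were the called genes Timeless, Wdhd1, Rad1, Chtf18, Atad5, E2f7, Ccne2, Cdc25a and Skp2. Parp1 was tested there and did not pass. With no filter the counts that fell were 1 for replicase subunits outside the members, 5 for clamp partners and 2 for repair polymerases. On TPM they were 1 for those replicase subunits, 0 for repair polymerases and 4 for G2/M genes, and with length and GC offsets 1 for the replicase subunits. DESeq2 gave 2 for repair polymerases. With single libraries left out the counts ranged from 3 to 6 for fork protection, 1 to 2 for clamp partners, 5 to 9 for fork chromatin, 0 to 2 for repair polymerases, 5 to 9 for G1/S regulators and 1 to 8 for G2/M genes. The cause of the other shifts was not tested, although leaving out a library also lowers the degrees of freedom.

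The labels do not say whether same-numbered libraries were paired. Over genes, the correlation of their deviations from the group means was −0.06, −0.06 and 0.05, which cannot exclude a shared batch. With the replicate block 19 members fell and 1 rose with a median of −0.36, against 18 and 1 without it, 5 G2/M genes and 0 repair polymerases fell, and 1242 genes rose and 1302 fell over all genes. Fen1 had only 20 to 57 counts per library, so its level and change are imprecise.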
